A study of Mus musculus with 4 samples.

Results

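Cells that are dividing switch on a set of genes for the machinery that condenses, captures and parts the chromosomes. A list of 46 mouse genes of mitosis, the spindle and the kinetochore was taken, and its members were the rows of the deposited table whose gene name equals a listed symbol. This gave 45 members out of 24216 rows, each with 1 row and each marked by the authors as tested. The remaining gene, Foxm1, is listed only in a row joined with 4933413G19Rik and is given apart. The data are RNA-seq of pulp cells of XLacZ4 mice, a transgenic strain whose lacZ reporter is known for its activity in pericytes and vascular smooth muscle. Molar pulp and incisor pulp gave 2 libraries each, both from cells sorted as positive for FDG, a substrate that fluoresces once beta-galactosidase cleaves it. The labels state no age, sex or further treatment of the mice, and do not say if the libraries come from different animals. The protocol label of the incisor libraries names molars, and the tissue was read from the title and tissue labels.

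Mouse incisors grow throughout life from progenitors at their base, whereas molars stop growing once their roots have formed. In a dividing cell, Cdk1 with its cyclins starts mitosis, kinetochores on the centromeres bind spindle microtubules, the spindle checkpoint holds the cell until every chromosome is attached, and the anaphase-promoting complex (APC/C) then marks securin and cyclin B for destruction. Most of these genes are transcribed in late cell cycle, largely through promoter elements that the DREAM and MYB-MuvB complexes bind, and fall silent in resting cells.

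All FPKM values (fragments per kilobase of transcript and sequencing depth), folds and q values below are those of the authors' deposited table. It holds 1 combined value per tissue, so no SD or n can be given, sequencing depth is unknown, and sorting, preparation and tissue cannot be told apart. A gene is named called where the authors' q was under 0.05. Scales differed between the tissues, since the FPKM values summed to 539574 in incisor and 815089 in molar, a log2 ratio of 0.60. No called member had an absolute log2 fold below 1.46, so equal totals turn none of the called members' directions below. Some uncalled members do change side with equal totals. Members given below as level or close are so by the deposited FPKM values, without equal totals.

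Calls among the mitosis genes leaned to the incisor by the q values of the authors' deposited table. Of the 45, 12 were called higher in incisor, or 26.7%, while 4.28% of all tested rows were called in that direction. In molar 4 members were called higher, or 8.89%, beside 11.9% of all tested rows. All 45 members reached 1 FPKM in at least 1 tissue, and among tested rows at that level 5.66% were called higher in incisor and 16.1% higher in molar. The incisor-higher members were Mki67, Top2a, Ncapd2, Aurka, Bub1b, Cenpe, Cenpf, Kif2c, Tpx2, Nusap1, Prc1 and Hmmr, with folds from 2.75 to 10.03. The molar-higher members were Ube2c, Cenpa, Ccnb2 and Plk1, with folds from 3.68 to 16.0. The other 29 were not called, 19 of them with the higher value in incisor and 10 with the higher value in molar. That split depends on scale. Of these 29, 11 changed side under alternative scalings or with the median of genes of like length subtracted. The median log2((molar FPKM + 1) / (incisor FPKM + 1)) was -0.71 over the members and 0.21 over all tested rows. The members' summed FPKM was 1236 in incisor and 1058 in molar, and Pttg1, Ube2c, Birc5 and Bub3 had the highest molar values.

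**Figure D1:**
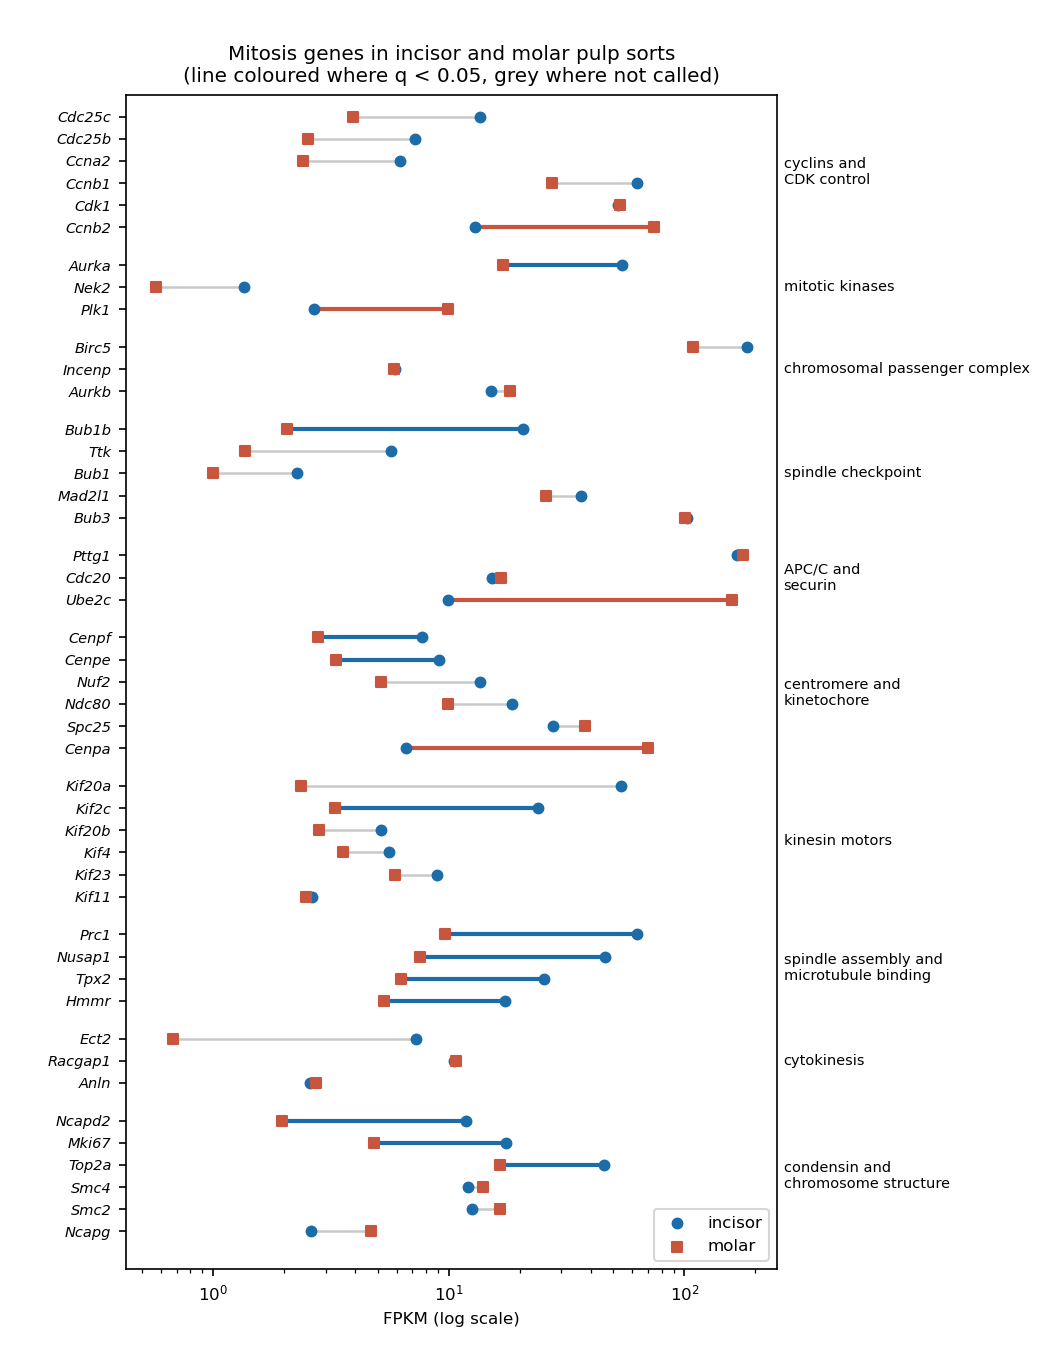
FPKM of the 45 mitosis genes in incisor (blue circles) and molar (red squares) on a log axis, grouped by role, with 1 combined value per tissue and no error bars. Lines are blue or red where the authors' q was under 0.05 and grey where it was not; all 4 spindle assembly genes have blue lines, while Ube2c, Cenpa, Ccnb2 and Plk1 have red ones.

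Markers of other cell types differed between the same libraries. Dental epithelial markers were called higher in incisor in 9 of 17 tested genes and higher in molar in none, and their summed FPKM was 23547 in incisor against 2647 in molar. Endothelial markers were called higher in molar in 11 of 12 (sums of 21.4 in incisor and 315 in molar, Cldn5 listed at 0 in incisor), erythroid markers in 5 of 9 (19.0 and 235, Klf1 listed at 0 in incisor). Mural markers, which the sort should collect, were called higher in incisor in 3 of 14 and higher in molar in 3, with sums of 849 and 480. Macrophage markers were called higher in incisor in 2 of 12 and higher in molar in 3 (5645 and 8920), and odontoblast and fibroblast markers in 5 of 12 and 1 (2844 and 4034). Such sums can rest on a single abundant marker. The highest dental epithelial marker alone had 20642 FPKM in incisor and 1937 in molar. The highest odontoblast and fibroblast marker alone had 1551 and 2778.5. The part of these cell types in the mitotic values was not tested. Fewer dividing cells and less of these RNAs per dividing cell cannot be told apart in such bulk samples.

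The promoters of 6 called members are shown because these members have the largest folds, in either direction, among those that hold a motif known from mitotic genes. This is the cell cycle genes homology region (CHR), searched as TTTGAA or TTCGAA on either strand. CCAAT, the box bound by NF-Y and common in the same promoters, was searched on both strands too. The sequences are the 200 bases before the RefSeq start site (GRCm38.p6), 5′ to 3′ on the gene's strand, with both motifs in capitals where they lie whole in the stretch.
Ube2c: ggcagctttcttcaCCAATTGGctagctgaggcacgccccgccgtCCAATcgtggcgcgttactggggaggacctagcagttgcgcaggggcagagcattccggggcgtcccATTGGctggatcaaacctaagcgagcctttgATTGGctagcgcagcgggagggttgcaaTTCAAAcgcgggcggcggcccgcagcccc
Cenpa: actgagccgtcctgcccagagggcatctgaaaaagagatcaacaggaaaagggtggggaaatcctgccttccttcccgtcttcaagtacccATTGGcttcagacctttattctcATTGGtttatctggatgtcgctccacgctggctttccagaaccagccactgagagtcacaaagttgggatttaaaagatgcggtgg
Bub1b: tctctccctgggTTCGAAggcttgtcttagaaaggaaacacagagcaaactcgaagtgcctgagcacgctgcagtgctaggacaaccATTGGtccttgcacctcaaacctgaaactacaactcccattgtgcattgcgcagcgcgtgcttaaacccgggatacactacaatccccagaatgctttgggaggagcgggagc
Kif2c: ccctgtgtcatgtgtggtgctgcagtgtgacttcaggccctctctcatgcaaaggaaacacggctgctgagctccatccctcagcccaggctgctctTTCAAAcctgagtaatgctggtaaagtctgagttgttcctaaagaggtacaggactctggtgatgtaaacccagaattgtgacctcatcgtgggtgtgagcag
Prc1: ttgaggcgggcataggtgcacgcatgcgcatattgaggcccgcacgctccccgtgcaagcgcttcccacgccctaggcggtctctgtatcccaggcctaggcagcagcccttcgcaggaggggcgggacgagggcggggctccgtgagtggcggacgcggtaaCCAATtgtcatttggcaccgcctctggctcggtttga
Ncapd2: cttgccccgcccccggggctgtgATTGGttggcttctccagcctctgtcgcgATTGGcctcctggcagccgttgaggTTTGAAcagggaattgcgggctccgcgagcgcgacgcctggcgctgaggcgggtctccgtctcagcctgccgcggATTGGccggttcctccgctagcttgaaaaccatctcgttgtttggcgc
The stretches lie at chr2:164769729-164769928 (plus strand) for Ube2c, chr5:30666686-30666885 (plus) for Cenpa, chr2:118598011-118598210 (plus) for Bub1b, chr4:117178773-117178972 (minus) for Kif2c, chr7:80294251-80294450 (plus) for Prc1 and chr6:125191587-125191786 (minus) for Ncapd2. In Ube2c the CHR hexamer begins 29 bases before the start, and the first capitals are a CCAAT that overlaps its own inverted copy. In Kif2c it begins 103 bases before the RefSeq start, which lies inside the interval of the deposited row and not at its edge. In Ncapd2 it begins 123 bases before the start. In Bub1b 1 copy begins 188 bases before the start and another at base 41 after it, outside the stretch shown. In Cenpa the copy begins at base 17 after the start, and in Prc1 it begins 5 bases before the start and runs past the last base shown, so neither is in capitals.

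Both directions of change were found among genes with these motifs. RefSeq promoter windows, 250 bases before to 50 after the start, were matched for 38 of the 46 symbols; Ccna2, Cdc25c, Foxm1, Aurkb, Incenp, Kif20a, Tpx2 and Smc4 were not matched. A CHR hexamer was found in 30 of the 38 (78.9%), in 21.7% of all genes with a window and in 17.0% of tested genes at 1 FPKM or more. All 4 molar-higher members had one, as did 9 of the 11 incisor-higher members with a window and 17 of the 23 that were not called. CCAAT was found in 29 of 38 windows (76.3%), beside 41.1% of all genes and 42.9% of tested genes at 1 FPKM or more. Within 50 bases of the start on either side, 27 of 38 members (71.1%) held a CHR hexamer, beside 6.12% of all genes and 4.49% of those at 1 FPKM or more. A match is a run of letters, not a measured site.

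**Figure D2:**
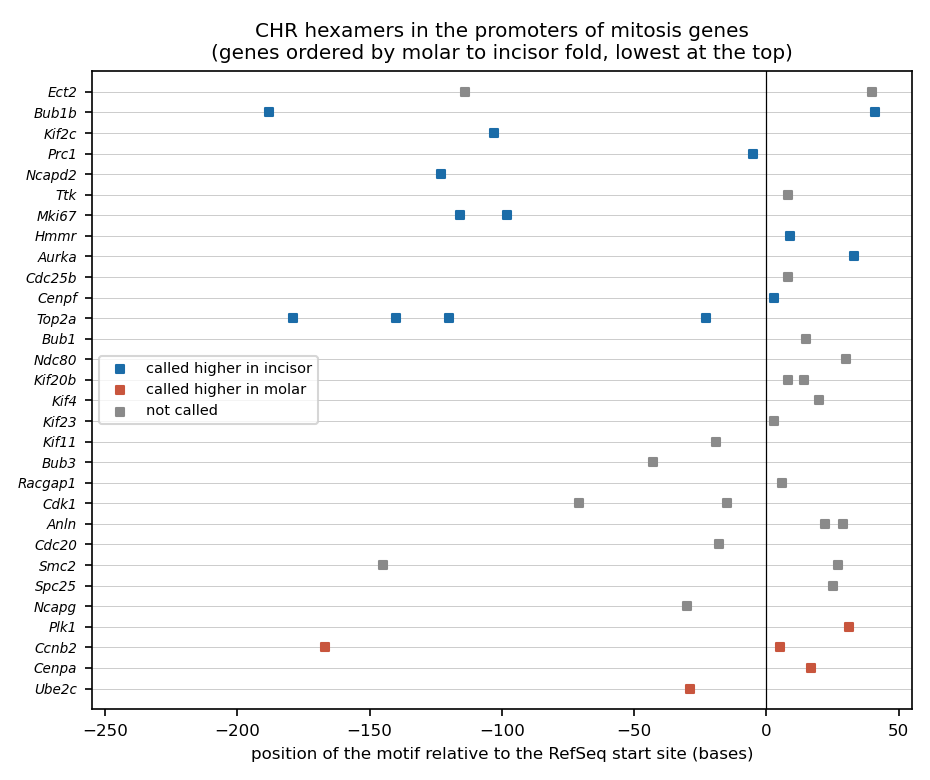
First base of each CHR hexamer relative to the RefSeq start site, in bases, for the 30 members that hold one, ordered from the lowest molar to incisor fold at the top to the highest at the bottom. Squares are blue for members called higher in incisor, red for higher in molar and grey for not called; hexamers lie near the start in all 3 classes.

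Among the regulators that start mitosis, the B cyclins had opposite orders. Ccnb2, a B-type cyclin that activates Cdk1 (chromosome 9, 70407689 to 70421554, mm10), was at 13.0 FPKM in incisor pulp and 73.96 in molar pulp. It was 5.71-fold higher in molar with q = 0.000664. That is the smallest q in the authors' deposited table, and Ube2c, Cenpa, Nusap1 and Prc1 share it. Ccnb1, the essential B-type cyclin, was at 63.0 FPKM in incisor pulp and 27.5 in molar pulp and was not called (q = 0.0738), and 46.7% of its transcript's 32-base words occur in other genes, chiefly the pseudogene Ccnb1-ps, so its value is uncertain. The difference between the cyclins' folds was not tested. Cdk1, the kinase that both cyclins activate, was nearly level at 52.4 and 53.5 (q = 0.912). With equal FPKM totals the log2 ratio of Cdk1 was -0.55. Cyclin A (Ccna2) stood at 6.19 in incisor and 2.41 in molar. The phosphatases that switch Cdk1 on were higher in incisor without a call, at 13.5 against 3.93 for Cdc25c (q = 0.179) and 7.15 against 2.53 for Cdc25b, whose interval in the table is shared by 13 rows. The joined row with Foxm1, the transcription factor of late cell cycle genes, was at 5.67 FPKM in incisor pulp and 1.62 in molar pulp with q = 0.0761.

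The mitotic kinases also divided. Aurka, the Aurora kinase of the spindle poles (chromosome 2, 172356190 to 172370570), was at 54.1 FPKM in incisor pulp and 16.9 in molar pulp, 3.196-fold higher in incisor (q = 0.0146 in the authors' deposited table). Plk1, the polo-like kinase that matures centrosomes and drives mitotic entry (chromosome 7, 122159435 to 122169884), went the other way, at 2.69 in incisor and 9.88 in molar, 3.68-fold with q = 0.0323. Of the Plk1 transcript, 18.6% of 32-base words occur in other genes, chiefly a pseudogene, so its value carries that doubt. Nek2, which separates centrosomes, was the lowest member in both tissues, at 1.36 and 0.569, and was not called.

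None of the 3 members of the chromosomal passenger complex was called. This complex corrects faulty attachments and later guides cytokinesis. Its kinase Aurkb stood at 15.1 in incisor and 18.1 in molar, its scaffold Incenp at 5.90 and 5.83, and survivin (Birc5), the highest incisor value of any member, at 185 and 109 (q = 0.211). Borealin (Cdca8), the remaining subunit and no member, was called higher in molar, at 47.9 against 16.7 (q = 0.0121).

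Of the spindle checkpoint genes 1 of 5 was called. Bub1b, which encodes BubR1, the checkpoint protein that restrains Cdc20 (chromosome 2, 118598211 to 118641592), was at 20.6 FPKM in incisor pulp and 2.05 in molar pulp, 10.03-fold higher in incisor (q = 0.0174 in the authors' deposited table). That was the highest fold of any member called higher in incisor. Its binding partner Bub3, which also has roles outside mitosis, was level at 103 and 101 (q = 0.914). The checkpoint kinases Ttk (5.66 in incisor against 1.36 in molar, q = 0.138) and Bub1 (2.27 against 0.993) and the inhibitor Mad2l1 (36.2 against 25.8) had their higher value in incisor and were not called.

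Among the genes of the anaphase-promoting complex, Ube2c had the largest molar-higher fold of the members. Ube2c, the ubiquitin-conjugating enzyme that works with that complex (chromosome 2, 164769929 to 164772902), was at 9.92 FPKM in incisor pulp and 159 in molar pulp, 16.0-fold (q = 0.000664 in the authors' deposited table). Of its 32-base words, 19.7% occur in other genes. Cdc20, the activator of the complex in mitosis, was close in both tissues at 15.2 and 16.6, and so was securin (Pttg1), which holds separase inactive, at 167 and 177. Neither was called, and 27.4% of the Cdc20 words occur in other genes. With equal FPKM totals the log2 ratios of Cdc20 and Pttg1 were -0.44 and -0.50. With the median of genes of like length subtracted they were -0.58 and -0.74.

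The centromere and kinetochore genes held calls both ways. Cenpa, the histone H3 variant that marks centromeres (chromosome 5, 30666886 to 30674837), was at 6.58 FPKM in incisor pulp and 69.8 in molar pulp, 10.6-fold higher in molar (q = 0.000664 in the authors' deposited table). Cenpe, a kinesin that moves chromosomes to the spindle equator (chromosome 3, 135212563 to 135273540), was 2.75-fold higher in incisor (FPKM of 9.09 and 3.31) with q = 0.0373, the called member nearest to the threshold. Cenpf, a large coiled-coil protein of the kinetochore (chromosome 1, 189640614 to 189688086), was 2.77-fold higher in incisor (FPKM of 7.72 and 2.79) with q = 0.0186. The Ndc80 complex is the rod that binds microtubules. Its microtubule-facing subunits had their higher value in incisor, Ndc80 at 18.5 against 9.97 and Nuf2 at 13.6 against 5.14. The inner subunit Spc25 had 27.6 FPKM in incisor and 37.7 in molar, and none of these 3 was called. The log2 ratio of Spc25 was -0.14 with equal FPKM totals and -0.45 with the median of genes of like length subtracted. Spc24, the partner of Spc25 and no member, was called higher in molar, at 14.9 against 1.74 (q = 0.000664).

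Of the kinesin motors 1 of 6 was called. Kif2c, which takes microtubules apart at the centromere (chromosome 4, 117159633 to 117182624), was at 23.8 FPKM in incisor pulp and 3.30 in molar pulp, 7.22-fold (q = 0.00422 in the authors' deposited table). Kif20a, which carries the passenger complex to the central spindle, had the largest ratio of all members, 53.7 in incisor against 2.36 in molar or 22.7-fold, and yet q = 0.384. Its row shares an interval with 2 others, and 32.5% of its 32-base words occur in other genes, chiefly its neighbour Cdc23. Kif11, the motor that pushes the spindle poles apart, was level at 2.63 and 2.47. Kif23 (8.92 in incisor against 5.90 in molar), Kif4 (5.59 against 3.55) and Kif20b (5.13 against 2.82), motors of the central spindle and of cytokinesis, had folds from 1.51 to 1.82 and were not called.

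All 4 spindle assembly genes were called higher in incisor. Prc1, which crosslinks the antiparallel microtubules of the central spindle (chromosome 7, 80294451 to 80316259), was at 62.6 FPKM in incisor pulp and 9.65 in molar pulp, 6.49-fold (q = 0.000664 in the authors' deposited table). Of its 32-base words, 30.6% occur in other genes, chiefly its neighbour Rccd1. Nusap1, which bundles microtubules near chromosomes (chromosome 2, 119609532 to 119650160), was 6.10-fold higher, at 45.9 against 7.53 with q = 0.000664. Tpx2, which activates Aurka on the spindle (chromosome 2, 152847964 to 152895321), was 4.04-fold higher, at 25.4 against 6.28 with q = 0.00756, in the same direction as Aurka. The intervals of Nusap1 and Tpx2 are each shared by 2 rows, so their values carry that doubt. Hmmr, a microtubule-binding protein of the spindle poles (chromosome 11, 40701388 to 40733437), was 3.27-fold higher, at 17.3 against 5.28 with q = 0.0177.

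No cytokinesis gene was called. Racgap1, which with Kif23 forms centralspindlin, had 10.5 FPKM in incisor and 10.7 in molar, and the contractile ring scaffold Anln at 2.57 and 2.73, in an interval that 15 rows share. Ect2, the exchange factor that switches on RhoA at the division plane, had a 10.8-fold ratio, 7.28 in incisor against 0.672 in molar, with q = 0.0733. Ect2 was thereby the uncalled member nearest to the threshold, followed by Ccnb1.

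Genes of chromosome structure were called higher in incisor in 3 of 6 cases. Mki67, the Ki-67 protein that coats mitotic chromosomes and serves as the usual stain for cycling cells (chromosome 7, 135689788 to 135716379), was at 17.5 FPKM in incisor pulp and 4.84 in molar pulp, 3.62-fold (q = 0.00176 in the authors' deposited table). Top2a, the topoisomerase that untangles sister chromatids (chromosome 11, 98992947 to 99024189), was 2.77-fold higher, at 45.8 against 16.5 with q = 0.0125. In condensin I, the ring that compacts chromosomes, the subunit Ncapd2 (chromosome 6, 125168007 to 125191586) was 6.03-fold higher in incisor (FPKM of 11.8 and 1.96) with q = 0.00676. The interval of Ncapd2 is shared by 2 rows. The ATPase subunits were close, Smc2 at 12.6 in incisor and 16.4 in molar and Smc4 at 12.1 and 13.9. Ncapg stood at 2.61 and 4.68, and none of these was called. The intervals of Smc4 and Ncapg are each shared by 3 rows, and 19.4% of the Ncapg 32-base words occur in other genes. The kleisin subunit Ncaph, no member, was called higher in incisor, at 35.5 against 7.77 (q = 0.00718). Partners of 1 complex thus carried unlike ratios, and the differences between them were not tested.

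Transcript length moved with the direction of the calls. The molar-higher members had transcripts of 967 to 2199 bases (median 1499), and the incisor-higher members of 1905 to 11130 bases (median 4129). Of the 10 members under 2000 bases, 3 calls were toward molar and 1, for Aurka, toward incisor. Of the 35 members of 2000 bases or more, 1 call, for Plk1, was toward molar and 11 were toward incisor. The same slope was present over all genes. Among 3848 tested genes under 2000 bases at 1 FPKM or more, 29.1% had calls toward molar and 1.66% toward incisor, with a median log2 ratio of 0.92. Among the 8853 longer genes, 10.5% had calls toward molar and 7.51% toward incisor, with a median of -0.15, while the share of members of that length called higher in incisor was 31.4%. With the median of genes of like length subtracted, the median log2 ratio of all members was -0.74. The incisor-higher members then ran from -2.61 to -0.90 and the molar-higher members from 1.18 to 2.76. Both groups were chosen by their calls, with absolute log2 folds of at least 1.46, so these signs were largely set beforehand. The part of length in the calls was not tested.

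**Figure D3:**
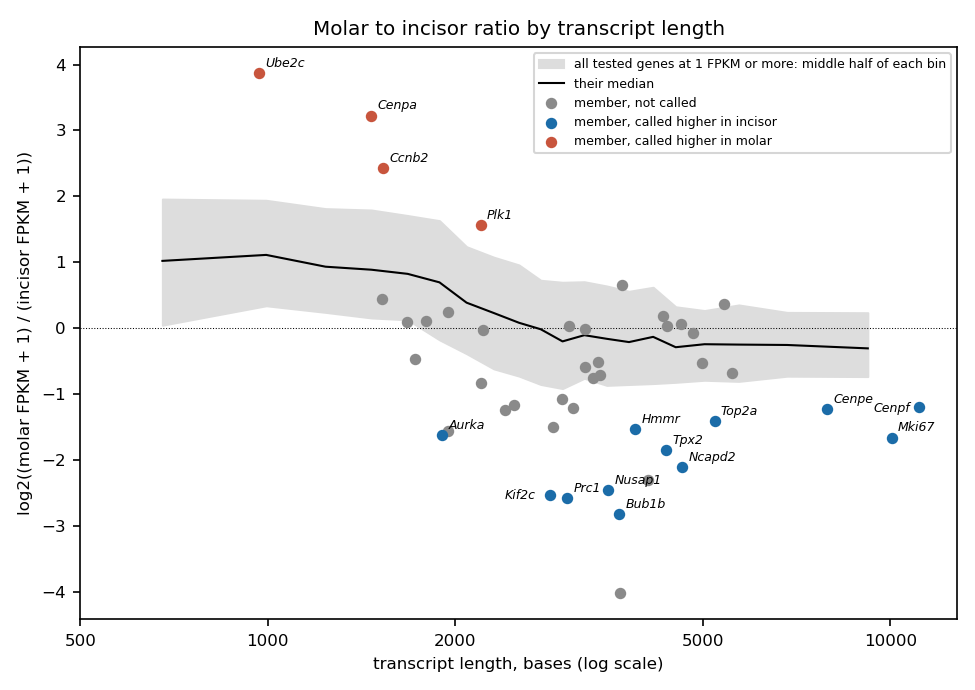
Log2 of molar over incisor FPKM, each with 1 added, against transcript length in bases on a log axis. Points are the 45 members, coloured where called. The black line is the median and the grey band the middle 50% of all tested genes at 1 FPKM or more in 20 length bins. Both fall from short to long transcripts. Ube2c, Cenpa, Ccnb2 and Plk1 lie above the band. Of the 12 incisor-higher members, Mki67 and Cenpf lie past the long end of the band and the others below it.

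Other genes of the same machinery had calls in both directions. Of 129 other tested genes of mitosis, 12 were called higher in incisor (9.30%) and 11 higher in molar (8.53%), with a median log2 ratio of -0.42. Among all tested rows 4.28% were called higher in incisor and 11.9% higher in molar. The molar share of these genes was thus below that of all tested rows. In the kinetochore list of 31, 3 calls favoured incisor and 2 favoured molar. Cenpi (5.62 in incisor against 0.339 in molar) and Zw10 (16.5 against 2.91) were higher in incisor, and Mis18a, which helps load Cenpa onto centromeres, was higher in molar (33.0 against 1.47) as Cenpa was. In the spindle list Ckap2 (17.5 in incisor against 2.01 in molar) and Ckap2l (40.1 against 13.0) were higher in incisor and Tacc3 (16.2 in molar against 5.49) higher in molar, out of 22. Among other cytokinesis genes Sept9 (86.5 in incisor against 18.8 in molar) and the kinase Melk (11.995 against 2.43) were higher in incisor, and Cdca8 was higher in molar, out of 11. Of the condensin and cohesin list of 14, Ncaph, Wapl (16.9 in incisor against 4.73 in molar) and Rad21 (18.5 against 6.56) were higher in incisor and the cohesin subunit Smc3 higher in molar (25.03 against 6.79).

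Genes of DNA replication and S phase, which comes earlier in the cell cycle than mitosis, were called in proportions near those of the members. Of 44 tested, 10 (22.7%) had calls toward incisor and 5 (11.4%) toward molar by the authors' deposited table. The shares among all tested rows were 4.28% and 11.9%, so the molar share of the list was near that of all rows. Their median log2 ratio was -0.57. Rpa1, which coats single-stranded DNA, had 66.8 FPKM in incisor and 7.71 in molar, and Cdc6, which loads the replicative helicase, at 11.8 and 1.73. Gins4, a helicase subunit (41.0 in molar against 3.66 in incisor), and Slbp, which binds histone mRNA (92.7 against 9.40), were higher in molar. Both molar-higher examples have transcripts under 2000 bases, at 1349 and 1906, and both incisor-higher ones longer transcripts, at 5077 and 4614. The rest of the list did not all follow these examples. Transcripts of 2000 bases or more made up 2 of the 5 calls toward molar and 9 of the 10 toward incisor. No test was made between the lists.

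**Figure D4:**
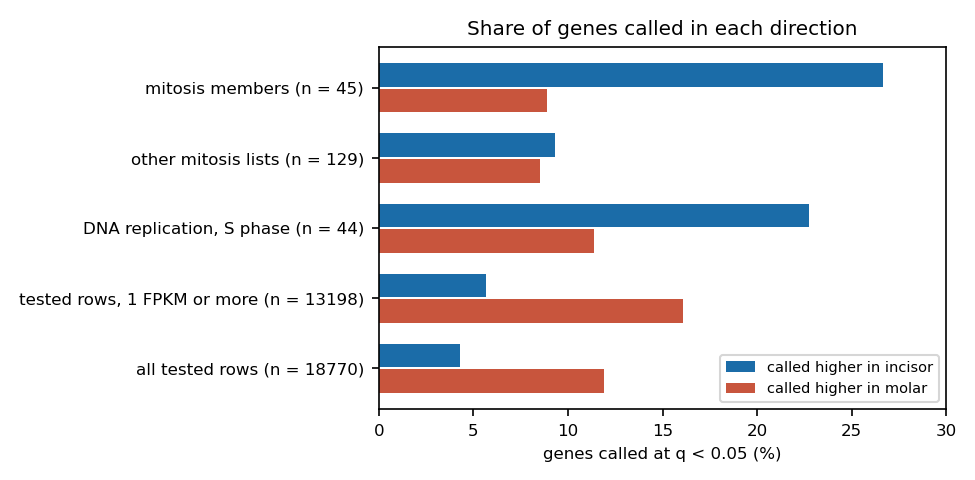
Percentage of genes called at q under 0.05 as higher in incisor (blue) or higher in molar (red), for the 45 members, the 129 other mitosis genes, the 44 S phase genes and the tested rows. The members' blue bar reaches 26.7% and their red bar 8.89%, whereas among all tested rows the red bar (11.9%) is the longer.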

How the data were processed

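RNA-seq of FDG-positive pulp cells was summarised by the authors in 1 table with a row per gene. Per the file headers, the deposited table gives an FPKM per tissue, a log2 fold change (molar over incisor), a p-value, a q-value and a test statistic (a signed score). Trim Galore, HISAT2, edgeR and mm10 are listed in the submitters' processing notes, which state neither the tool behind the table nor its scaling or annotation. The libraries of a tissue were already combined, so the planned tests of samples could not be made and the authors' q was used. Depth per library is unknown, and precision cannot be stated. Of 24216 rows 18770 were tested.

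The members and gene lists were chosen with earlier results of these data known. Values were read with Python 3.11.15 and pandas 2.3.3, 1-based on mm10. Named genes were every member and, in each list of others, up to 4 called genes with the largest absolute fold at 1 FPKM or more; Cdca8, Spc24 and Ncaph fall under that rule. Septin9 was found under its older symbol Sept9. Medians used a pseudocount of 1, which understates differences of low genes. Transcript lengths and 32-base words were taken from GENCODE M21 (per gene the longest transcript matched to a RefSeq mRNA); a length was found for 12701 of 13080 genes. The counting step was tested on simulated data. Alternatives changed the threshold, minimum FPKM, pseudocount and scaling; those on length, shared intervals and motif windows were chosen after seeing the data.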

Additional observations from a re-analysis of the deposited data

How the results depend on the processing

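No paired analysis was possible because the deposited table holds 1 combined value per tissue; for the same reason no library could be left out. The count of members called higher in incisor was 6 instead of 12 at q under 0.01, and also 6 with an absolute log2 fold of at least 2; it was 14 at q under 0.1 and 9 without members whose interval is shared with another row. The count higher in molar was 1 instead of 4 among transcripts of 2000 bases or more, and 3 or 4 under the other settings. In the other mitosis lists, the counts were 5 higher in incisor and 4 higher in molar at q under 0.01, and 4 higher in molar among transcripts of 2000 bases or more, where the S phase list had 2. The members' median log2 ratio of -0.71 was -0.89 with a pseudocount of 0.1, -0.42 with a pseudocount of 5, -0.95 with a minimum of 5 FPKM, -0.94 with median centring, -1.10 with equal FPKM totals, -0.74 with length centring and -1.08 among transcripts of 2000 bases or more. The cause of these shifts was not tested, beyond the fewer genes that a stricter limit leaves. Members with a CHR hexamer numbered 15 in the 250 bases before the start alone and 27 in the 100 bases around it. FPKM gives no read counts, so what depth limits cannot be stated.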

Other observations

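Genes that regulate mitotic exit and the cell cycle were read against the background of the authors' deposited table, in which 4.28% of all tested rows were called toward incisor and 11.9% toward molar. Of 22 tested genes of the anaphase-promoting complex and mitotic exit, 4 calls favoured molar and 1 favoured incisor, with a median log2 ratio of -0.03. Fbxo5, which encodes the inhibitor Emi1 of that complex, stood at 14.3 FPKM in molar and 4.11 in incisor, its small subunit Anapc11 at 95.0 and 37.0, and Mad2l2 at 69.5 and 28.6. Mad1l1, which recruits the checkpoint protein Mad2 to kinetochores, was higher in incisor, at 44.7 against 14.1 in molar.

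Of 19 tested genes of the E2F, DREAM and MYB-MuvB factors, which govern cell cycle promoters, 1 was called in each direction. Lin37, a MuvB subunit, had 60.8 FPKM in molar and 2.69 in incisor, and Tfdp1, the partner of E2F proteins, was at 30.4 in incisor and 8.50 in molar. Their transcripts measure 1312 and 2682 bases. Of 10 other genes of CDK control, Cks2, a small CDK-binding protein with a transcript of 692 bases, was called higher in molar (112 against 48.4), and none was called higher in incisor.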
